A study of Mus musculus with 21 samples.

Results

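The enzymes of the tricarboxylic acid (TCA) cycle were examined through 9 genes, Cs, Idh2, Idh3a, Idh3b, Idh3g, Ogdh, Dlst, Sucla2 and Mdh2. They were chosen by name, and all 9 were found among the 46517 Ensembl genes of the count table. The study asked how the heart of the mouse is affected when the receptor Notch3, which is found mainly in smooth muscle cells and pericytes of blood vessels, is missing. RNA from the heart was turned into cDNA, amplified by PCR, fragmented with the Tn5 enzyme and sequenced, and the authors deposited the number of reads on each gene. The paper names the left ventricle for its qPCR samples and gives no chamber for the sequenced RNA. Control mice were Notch3 +/+ and the other group was Notch3 -/-, both on the C57BL/6J strain. The Notch3 -/- mice carry a lacZ gene inserted into the Notch3 locus, so every cell of the body lacks the intact gene from the start. The mice were 10 to 14 months old, and their sex is not given in the sources used here. There were 4 Control mice and 3 Notch3-/- mice, with 3 technical libraries from each mouse and 21 libraries in all. In edgeR and DESeq2 a p-value rests on the spread between 7 mice, after the counts of the technical libraries of a mouse were summed. The limma-voom fits use the 21 libraries with mouse as a random effect, and the correlation within mice was low (0.152, or 0.170 with the depth covariate), so that their SE and p-values rest in part on the libraries and can be too small.

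The TCA cycle runs in the mitochondrial matrix. It oxidizes the acetyl groups made from fatty acids, glucose and other fuels, and hands the electrons to the respiratory chain. The heart beats without pause and depends on this oxidation for its ATP, so cardiomyocytes are packed with mitochondria and express the genes of the cycle at a high level. Several steps are carried out by enzymes with many subunits, and some steps have a counterpart in the cytosol that is encoded by another gene.

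Depth has to be known before the levels are read. Control mice 1 to 4 gave totals of 3091461, 4638786, 4208205 and 3046326 counts. Notch3-/- mice 1 to 3 gave 3828763, 5167869 and 5086740. Single libraries had 464390 to 2134368 counts in Control mice (median 1196276.5, n = 12) and 979804 to 2427783 in Notch3-/- mice (median 1583662, n = 9). The Notch3-/- libraries were thus deeper on average, by 0.36 on the log2 scale, while 2 of the 3 libraries of Notch3-/- mouse 1 were below the Control median. The labels of Control mice 1 and 2 start with X and those of the other 5 mice with k, so that no genotype comparison is possible within the X mice.

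Notch3 itself was looked at first as a check of the labels. Control mice 1 to 4 gave 174, 200, 245 and 185 counts for it, and Notch3-/- mice 1 to 3 gave 22, 36 and 25. The log2 fold change of Notch3-/- over Control was -3.16 (SE 0.23, FDR 0.00173, edgeR), and every Notch3-/- mouse was far below every Control mouse. Levels of the cardiomyocyte markers fitted the labelled tissue, with Ttn, the gene of the giant sarcomere protein titin, as the most abundant of the 10 markers at 9153 to 15221 CPM (counts scaled to the effective library size).

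The 9 genes lie on 9 different chromosomes (GENCODE vM21 annotation of GRCm38). Cs (ENSMUSG00000005683, chromosome 10, 128337734 to 128362479, plus strand) encodes citrate synthase, which joins acetyl-CoA to oxaloacetate at the entry of the cycle. Idh2 (ENSMUSG00000030541, chromosome 7, 80094846 to 80115392, minus strand) encodes the mitochondrial isocitrate dehydrogenase that uses NADP+. The enzyme of the cycle proper uses NAD+ and is built from the subunits encoded by Idh3a (ENSMUSG00000032279, chromosome 9, 54586334 to 54604661, plus strand), which is catalytic, Idh3b (ENSMUSG00000027406, chromosome 2, 130279309 to 130284547, minus strand) and Idh3g (ENSMUSG00000002010, chromosome X, 73778963 to 73786897, minus strand). Ogdh (ENSMUSG00000020456, chromosome 11, 6291633 to 6356642, plus strand) and Dlst (ENSMUSG00000004789, chromosome 12, 85110833 to 85134845, plus strand) encode the dehydrogenase and the succinyl transferase of the 2-oxoglutarate dehydrogenase complex. Sucla2 (ENSMUSG00000022110, chromosome 14, 73525319 to 73596142, plus strand) encodes the subunit of succinate-CoA ligase that makes the enzyme form ATP. Mdh2 (ENSMUSG00000019179, chromosome 5, 135778480 to 135790398, plus strand) encodes the mitochondrial malate dehydrogenase, which returns oxaloacetate to the first step. Idh3b shares 5 exon bases with Nop56 on the opposite strand, and the other 8 genes share no exon base with an annotated neighbour.

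Promoter windows of 300 bases, 250 before and 50 after the start of transcription, were found in the RefSeq table (GRCm38.p6) for 8 of the 9 genes. Idh3a had no entry. The windows are shown for the genes at the ends of the range described further on. These are Idh2 and Dlst, with the largest and the smallest genotype difference in the summed counts. Mdh2 and Sucla2 are shown for the steepest and the flattest change with depth over all 21 libraries. Without the shallowest library Dlst was the flattest (-0.25). All are written 5′ to 3′ on the strand of the gene. The Sucla2 window lies inside the GENCODE gene, since the start in RefSeq is downstream of the outermost start in GENCODE. Capitals mark matches on either strand to 4 short motifs. These are AAGGTCA (the core of the half-site bound by estrogen-related receptors), GCATGCGC (nuclear respiratory factor 1), CCGGAAG (the ETS family) and GGGCGG (Sp1).
Idh2, chr7:80115301-80115600, minus strand: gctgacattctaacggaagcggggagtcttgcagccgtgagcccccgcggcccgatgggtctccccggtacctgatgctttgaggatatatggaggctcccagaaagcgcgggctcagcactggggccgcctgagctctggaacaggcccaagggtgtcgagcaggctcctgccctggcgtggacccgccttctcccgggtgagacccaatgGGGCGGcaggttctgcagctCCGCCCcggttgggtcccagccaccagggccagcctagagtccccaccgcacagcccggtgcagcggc
Dlst, chr12:85110583-85110882, plus strand: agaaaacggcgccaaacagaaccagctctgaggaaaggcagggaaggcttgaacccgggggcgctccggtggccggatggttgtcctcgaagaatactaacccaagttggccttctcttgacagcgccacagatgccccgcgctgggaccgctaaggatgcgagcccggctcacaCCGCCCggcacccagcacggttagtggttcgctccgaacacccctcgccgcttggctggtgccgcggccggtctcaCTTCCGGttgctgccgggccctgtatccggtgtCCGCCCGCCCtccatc
Mdh2, chr5:135778399-135778698, plus strand: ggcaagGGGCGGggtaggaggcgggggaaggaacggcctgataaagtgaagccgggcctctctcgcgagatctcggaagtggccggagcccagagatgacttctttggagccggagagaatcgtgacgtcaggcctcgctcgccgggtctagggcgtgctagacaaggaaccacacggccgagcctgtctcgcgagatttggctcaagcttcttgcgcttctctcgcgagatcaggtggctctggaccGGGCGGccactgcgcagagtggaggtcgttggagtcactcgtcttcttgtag
Sucla2, chr14:73552536-73552835, plus strand: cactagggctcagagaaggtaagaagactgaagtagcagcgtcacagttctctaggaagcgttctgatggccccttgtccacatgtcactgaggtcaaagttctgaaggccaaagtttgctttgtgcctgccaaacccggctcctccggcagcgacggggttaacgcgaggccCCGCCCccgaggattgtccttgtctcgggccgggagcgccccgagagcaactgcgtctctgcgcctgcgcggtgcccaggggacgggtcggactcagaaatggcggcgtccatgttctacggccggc

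GGGCGG or its reverse complement was found in 6 of the 8 genes, Cs, Idh2, Ogdh, Dlst, Sucla2 and Mdh2, and in 35.9% of the 32544 promoter windows or 38.5% of the 26742 genes of the table. CCGGAAG was found in Idh3b, Idh3g and Dlst, and in 8.91% of all windows or 10.0% of all genes. AAGGTCA and GCATGCGC were each found for Ogdh only, which has 6 windows because the table lists several starts, and in 4.71% and 2.73% of all windows or 5.38% and 3.07% of all genes. Near the end of the Dlst window the GGGCGG matches overlap each other. A match describes the letters of the window and was not tested as a binding site.

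The 9 genes were all abundant in the heart. Ranked by CPM per kb of annotated exon, they stood at places 54 (Ogdh) to 604 (Dlst) of 14247 genes. On this scale the mean level over the 7 mice was 437 ± 70.9 (SD) for Ogdh, 433 ± 90.1 for Idh2 and 236 ± 43.0 for Mdh2. Cs (223 ± 26.9) and Idh3g (219.6 ± 39.3) came next and differed by less than their spread between mice. The lowest levels were those of Idh3a (161 ± 18.1) and Dlst (92.2 ± 7.27). Idh2 was above Ogdh in Control mice (493 against 472), and Ogdh was above Idh2 in Notch3-/- mice (390 against 353). The order also depends on the length that is used, since rare transcripts add exon bases. Per kb of the principal transcript of each gene, Idh2 was first at 642 ± 134, followed by Mdh2 at 579 ± 105 and Ogdh at 577 ± 93.7, and Sucla2 and Dlst shared the lowest level at 319 CPM per kb. Of the 3 subunit genes of the NAD+ enzyme, Idh3g was above Idh3b and Idh3b above Idh3a on both scales.

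Idh2 showed the largest difference between the genotypes. Control mice 1 to 4 were at 1421, 1143, 1145 and 1399 CPM, Notch3-/- mice 1 to 3 at 1042, 809.8 and 887 CPM. Every Notch3-/- mouse was below every Control mouse. The log2 fold change was -0.48 (SE 0.13), a level 28.5% lower, with an FDR of 0.206 over all genes in edgeR.

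The genes of the NAD+ isocitrate dehydrogenase differed less. Idh3g was at 741, 605, 586 and 682 CPM in Control mice 1 to 4 and at 607, 417 and 514 CPM in Notch3-/- mice 1 to 3, so that Notch3-/- mouse 1 lay within the Control range. Its log2 fold change was -0.35 (SE 0.14, FDR 0.445, edgeR). Idh3b (-0.27, SE 0.13) and Idh3a (-0.19, SE 0.11) had smaller differences in the same direction and overlapped between the groups. Without Notch3-/- mouse 2, the lowest mouse, the log2 fold change was -0.22 for Idh3g and -0.083 for Idh3a. With the depth covariate (limma-voom) it was -0.17 for Idh3g, -0.064 for Idh3b and -0.089 for Idh3a.

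At the 2-oxoglutarate dehydrogenase complex, Ogdh was at 2900, 2248, 2330 and 2819 CPM in Control mice and at 2504, 1877 and 1998 CPM in Notch3-/- mice. The highest Notch3-/- mouse was above Control mice 2 and 3, and the log2 fold change was -0.28 (SE 0.13, FDR 0.506, edgeR). It was -0.11 in the depth-matched libraries (edgeR) and -0.047 with the depth covariate (limma-voom). Dlst, the partner of Ogdh in the complex, was at 983, 831, 841 and 961 CPM in Control mice and at 912, 814 and 829.8 CPM in Notch3-/- mice. The groups overlapped through Notch3-/- mouse 1 only, and the log2 fold change was -0.086 (SE 0.10). It was -0.044 without Control mouse 1, -0.14 without Notch3-/- mouse 1 and 0.019 with the depth covariate (limma-voom).

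Cs was at 1515, 1204, 1245 and 1441 CPM in Control mice and at 1358, 1107 and 1136 CPM in Notch3-/- mice, with overlapping groups. Its log2 fold change was -0.17 (SE 0.12). It was -0.11 without Control mouse 1, -0.27 without Notch3-/- mouse 1 and 0.00073 with the depth covariate (limma-voom). Sucla2 was at 797, 748, 726 and 752 CPM in Control mice and at 724, 585 and 644 CPM in Notch3-/- mice. Its groups did not overlap, though Notch3-/- mouse 1 was within 2 CPM of the lowest Control mouse. The log2 fold change was -0.22 (SE 0.10, FDR 0.498, edgeR), or -0.13 with the depth covariate (limma-voom). Mdh2 was at 1061, 774, 863 and 994 CPM in Control mice and at 867, 628 and 709.5 CPM in Notch3-/- mice, with a log2 fold change of -0.33 (SE 0.15, FDR 0.479, edgeR). Notch3-/- mouse 1 was above Control mice 2 and 3 for this gene. The log2 fold change of Mdh2 was -0.14 in the depth-matched libraries (edgeR) and -0.079 with the depth covariate (limma-voom).

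**Figure D1:**
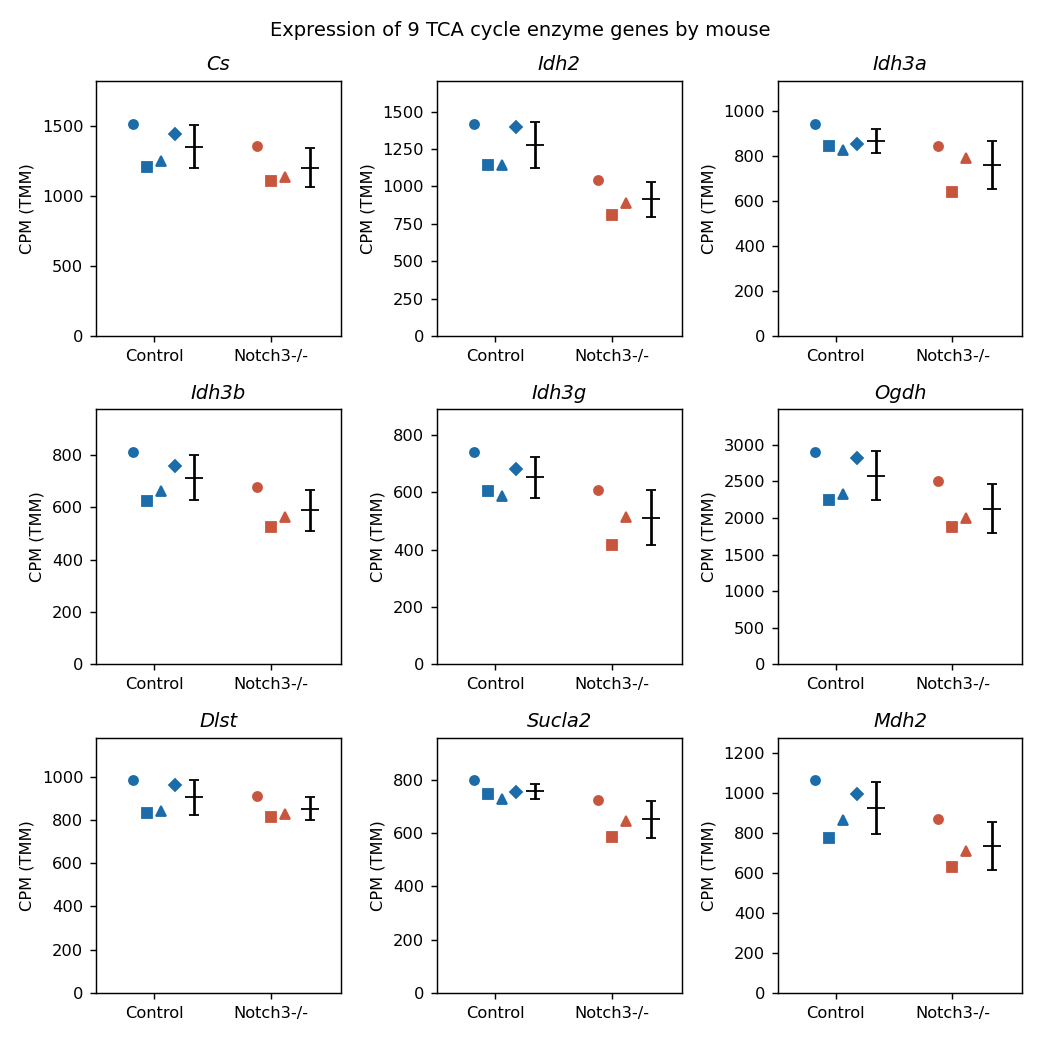
Each panel shows 1 gene, with TMM-scaled CPM on an axis that starts at 0, 1 point per mouse (circle, square, triangle and diamond for mice 1 to 4) and the mean with SD beside each group. Control mouse 1 is the highest and Notch3-/- mouse 2 the lowest mouse in all 9 panels, and the groups are apart for Idh2 and Sucla2 only.

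The 9 genes moved together from mouse to mouse. Control mouse 1 had the highest level of all 7 mice for 9 of 9 genes, and Notch3-/- mouse 2 the lowest for 9 of 9. Across the 36 pairs of these genes Pearson's r of log2 CPM over the 7 mice was 0.709 to 0.996 (median 0.937), a description in which the points share library, depth and scaling. Together the genes took 1.10%, 0.922%, 0.932% and 1.05% of the reads counted for Control mice 1 to 4. For Notch3-/- mice 1 to 3 their share was 0.911%, 0.681% and 0.839%.

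All 9 genes were lower in Notch3-/- hearts in the fit over all genes. Their log2 fold changes had a median of -0.27, against -0.0028 over the 14324 genes tested, of which 7216 were lower. With depth as a covariate the median was -0.079 (limma-voom) or -0.088 (edgeR, chosen after seeing the data), and Cs and Dlst were then no longer lower. None of the 9 was called by edgeR at an FDR below 0.05 and a fold change of at least 1.5. In the whole table that rule called 1 gene, Notch3 (0.00698% of those tested). Without Notch3-/- mouse 3 it called 936 genes and again none of the 9. At an unadjusted p below 0.05, 3 of 9 were lower (Idh2, Idh3g and Mdh2), where 3.05% of all tested genes were. This count ranged from 0 to 6 over the alternatives. It was 0 in the depth-matched libraries, in technical libraries 1 and 3 alone and with a hepatocyte covariate, 1 with either depth covariate and 6 without Notch3-/- mouse 1. The groups did not overlap, with Notch3-/- below Control, for 2 of 9, where this held for 3.96% of all tested genes. With DESeq2 none of the 9 passed both thresholds either, and Idh2 alone had an FDR below 0.05 (0.0208). Over the 25 alternative settings the FDR of Idh2 ranged from 0.0208 to 0.999. Whole tissue was measured, so that fewer cardiomyocytes and less of these RNAs in each cardiomyocyte cannot be told apart. Nor can either be fully told apart from the difference in depth or from the hepatocyte RNA described below.

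The technical libraries gave a second view, since libraries of 1 mouse come from the same heart and differ in depth. Whether they share RNA, cDNA or only the tissue is not given in the sources used here, so that other differences between them cannot be told apart from depth. In Control mouse 4, the library of 464390 counts gave 2341 CPM for Idh2, that of 1139286 counts gave 1350.3 CPM and that of 1442650 counts gave 1146 CPM. In Notch3-/- mouse 3, Mdh2 was at 1003 CPM in the library of 1222065 counts and at 519.9 CPM in the library of 2427783 counts. In both mice the deeper library had the lower level.

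Over all 21 libraries, with a term for each mouse, the slope of log2 CPM per doubling of the library total was below 0 for 9 of 9 genes. It was -0.74 (SE 0.056) for Mdh2, -0.72 (SE 0.044) for Idh2, -0.69 (SE 0.064) for Ogdh, -0.61 (SE 0.077) for Idh3b, -0.55 (SE 0.078) for Idh3g and -0.51 (SE 0.042) for Cs. It was flatter for Idh3a at -0.34 (SE 0.043), Dlst at -0.30 (SE 0.070) and Sucla2 at -0.29 (SE 0.049). The median slope was -0.55 for the 9 genes and 0.030 for all 14324 tested genes. It was -0.58 for the 65 tested genes of at least 1000 CPM, of which 65 had a slope below 0. For the 2455 tested genes of at least 100 CPM it was -0.068, and 1569 of these had a slope below 0.

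**Figure D2:**
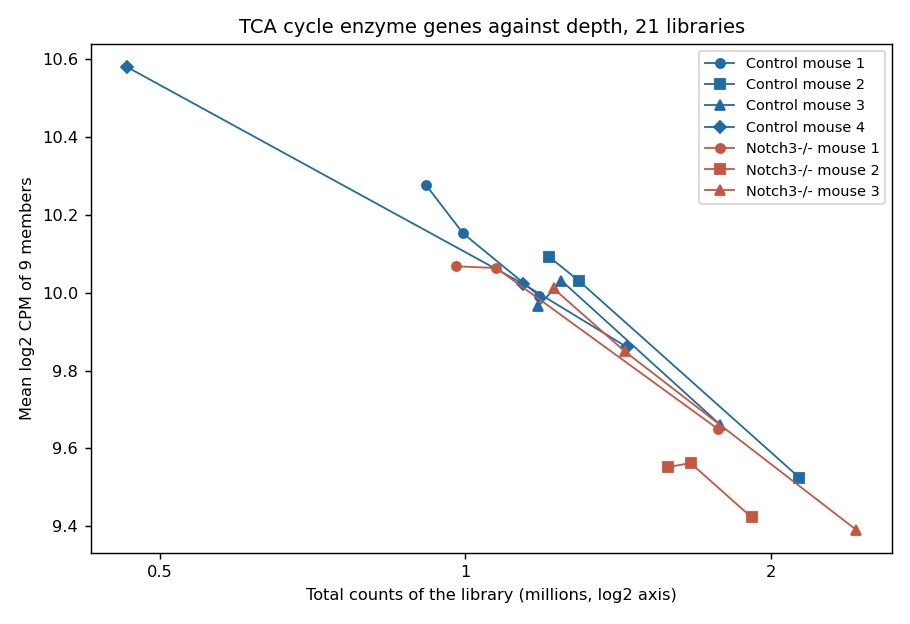
The mean log2 CPM of the 9 genes is plotted against the total counts of the library on a log2 axis, with 1 point per library and a line joining the 3 libraries of a mouse (blue for Control, red for Notch3-/-). The mean declines with depth within every mouse but is nearly level between the 2 shallower libraries of Notch3-/- mice 1 and 2 and rises between those of Control mouse 3, and the libraries of Notch3-/- mouse 2 lie below those of other mice at a like depth.

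Counts per exon base were compared with the highest in the table. Among genes with at least 500 exon bases, the gene with the most counts per exon base reached 1.76 to 1.97 in each of the 21 libraries. Shorter mitochondrial transfer RNA genes passed 2 in most libraries, with up to 2.56, so that a ceiling is an assumption here and was not tested. Idh2 reached up to 0.772 counts per exon base and up to 1.15 per base of its principal transcript. Ogdh reached 0.731 and 0.967, and Mdh2 0.394 and 0.964 on the same measures. For Sucla2 they were 0.387 and 0.692. How duplicate reads were treated is not given in the sources used here.

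The genotype difference was smaller when depth was held alike. In 1 library per mouse, the one closest to the median total of 1244170 counts, the mean log2 CPM of the 9 genes was 9.99, 10.09, 10.03 and 10.02 in Control mice 1 to 4. It was 10.06 in Notch3-/- mouse 1 (1073361 counts) and 10.01 in Notch3-/- mouse 3 (1222065 counts), both within the Control range. It was 9.55 in Notch3-/- mouse 2, whose shallowest library still had 1583662 counts. At a comparable depth the deepest libraries of Control mouse 3 (1783399 counts) and Notch3-/- mouse 1 (1775598 counts) had means of 9.66 and 9.65, and the other libraries of Notch3-/- mouse 2 had 9.56 (1667986 counts) and 9.42 (1916221 counts).

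The median log2 fold change of the 9 genes was -0.14 in the depth-matched libraries (edgeR) and -0.28 in limma-voom on the 21 libraries. It was -0.079 in the same limma-voom fit with log2 library total as a covariate. With that covariate Cs and Dlst were no longer lower (0.00073 and 0.019). Idh2 had the largest difference under both treatments of depth, at -0.33 (SE 0.16) in the depth-matched libraries and -0.25 (SE 0.055) with the covariate. Idh2 was at 1267, 1446, 1352 and 1350.3 CPM in the depth-matched libraries of Control mice 1 to 4 and at 1209, 828 and 1190.3 CPM in those of Notch3-/- mice 1 to 3. It was the 1 gene of the 9 whose groups were still apart there, where this held for 2.65% of tested genes. Sucla2 was not, with Notch3-/- mice 1 and 3 at 762 and 769 CPM within the Control range of 697 to 836 CPM.

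**Figure D3:**
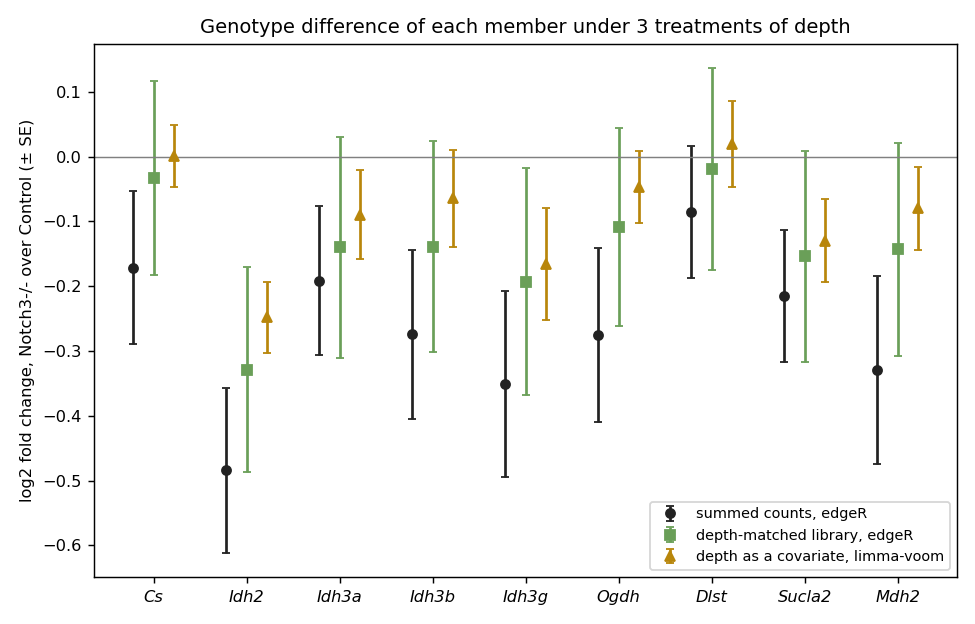
The log2 fold change of Notch3-/- over Control with its SE is shown for each gene from the summed counts (black), from 1 depth-matched library per mouse (green) and with log2 library total as a covariate (gold). Each gene is nearer to 0 under both treatments of depth than in the summed counts, and Idh2 is the lowest under all 3.

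Further mitochondrial genes of the cycle went the same way. Of 9 examined, 9 were lower in Notch3-/- hearts (median -0.21), none was called by edgeR on summed counts or DESeq2, and 2 had an unadjusted p below 0.05 in edgeR (Fh1 and Sdhc), where 3.05% of all tested genes were lower. Fh1, which encodes fumarate hydratase, was at 667, 599, 594 and 634 CPM in Control mice and at 560.5, 433 and 506 CPM in Notch3-/- mice, with groups apart and a log2 fold change of -0.32 (SE 0.11, FDR 0.357, edgeR). The subunits of succinate dehydrogenase ranged from -0.20 (Sdha) to -0.31 (Sdhc). Suclg2, which directs succinate-CoA ligase to GTP and pairs with the same alpha subunit as Sucla2, had the smallest difference on summed counts at -0.039 (SE 0.13). Suclg2 was at -0.17 in the depth-matched libraries (edgeR) and at -0.077 with the depth covariate (limma-voom). Within-mouse slopes on depth were below 0 for 8 of these 9 (median -0.43), and with the depth covariate the median log2 fold change was -0.077.

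Genes at both sides of the cycle in the mitochondrion were examined too. Of the 4 pyruvate dehydrogenase genes, which feed acetyl-CoA into it, 4 were lower, from -0.22 (Pdhb) to -0.0067 (Dlat), none with an unadjusted p below 0.05. Their median was -0.13, and -0.049 with the depth covariate, where 3 of 4 were lower. Of 29 genes of the respiratory chain and ATP synthase, 29 were lower, from -0.31 (Ndufv1) to -0.15 (Ndufs8), with a median of -0.27, and 3 had an unadjusted p below 0.05 (3.05% of all tested genes were lower at that threshold), with none called by edgeR on summed counts or DESeq2. Their median slope on depth was -0.66, and with the depth covariate their median log2 fold change was -0.034, with 22 of 29 lower. The 10 cardiomyocyte markers had a median of -0.24, a median slope of -0.80 and, with the covariate, a median of 0.030, with 2 of 10 lower.

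**Figure D4:**
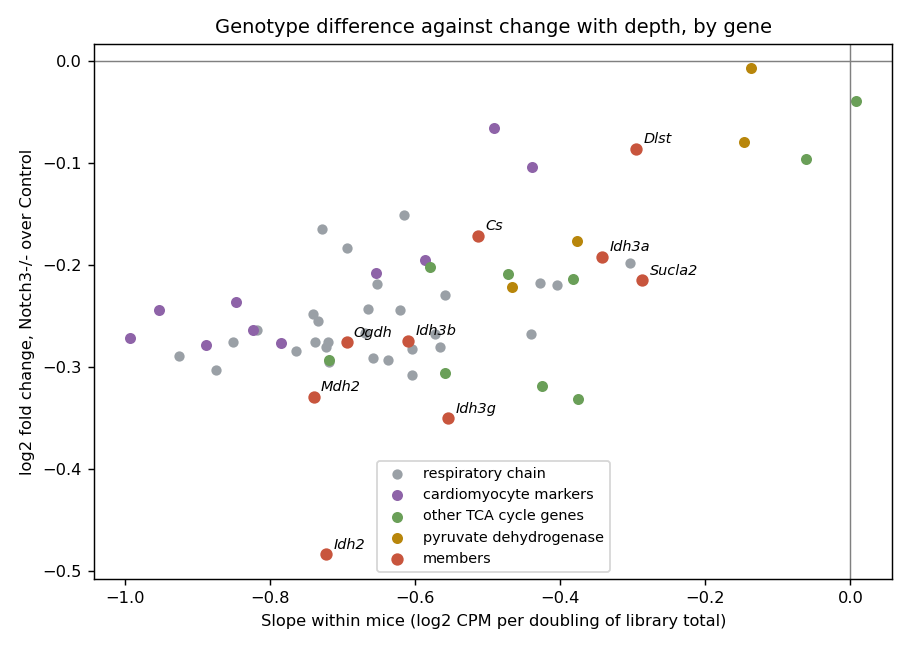
Each point is 1 gene, with its slope of log2 CPM per doubling of the library total within mice on the horizontal axis and its log2 fold change of Notch3-/- over Control on the vertical axis. Idh2 lies lowest of the 61 genes, below respiratory chain genes and cardiomyocyte markers of like slope, while Dlst lies among the genes with a difference near 0.

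Among the 65 tested genes of at least 1000 CPM, 61 were lower in Notch3-/- hearts (median -0.22), and Pearson's r between the slope and the log2 fold change was 0.72 across these genes, which share the libraries and the scaling and are not independent replicates. Spearman's rho was 0.79. Of the 2455 tested genes of at least 100 CPM, 1472 were lower and 983 higher (median -0.049). Over these 2455 genes r was 0.21 and rho 0.44.

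Of 4 cytosolic counterparts 1 was lower and 3 were higher. Mdh1, the cytosolic malate dehydrogenase, was lower like its mitochondrial partner, at -0.24 (SE 0.13). It was at -0.057 in the depth-matched libraries (edgeR) and at -0.0021 with the depth covariate (limma-voom). Aco1, Idh1 and Acly were higher, each with an unadjusted p below 0.05, where 7.34% of all tested genes were. None of these 3 was called by edgeR on summed counts or depth-matched libraries or by limma-voom. DESeq2 called Aco1 (FDR 0.0335) and neither of the other 2. Aco1, the cytosolic aconitase and iron sensor, was at 68.8, 77.1, 73.9 and 71.5 CPM in Control mice and at 90.5, 161 and 102 CPM in Notch3-/- mice, with groups apart and a log2 fold change of 0.69 (SE 0.20, FDR 0.237, edgeR). Idh1, the cytosolic NADP+ isocitrate dehydrogenase, was at 129.7, 161, 113 and 118 CPM in Control mice and at 195, 376 and 133 CPM in Notch3-/- mice. Acly, which splits exported citrate for lipid synthesis, was at 100.1, 90.2, 82.1 and 96.5 CPM in Control mice and at 263, 896 and 82.1 CPM in Notch3-/- mice. For these 3 genes Notch3-/- mouse 2 was the highest, while Notch3-/- mouse 3 was within the Control range for Idh1 and level with the lowest Control mouse for Acly.

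Of 18 genes that feed, drain or shuttle intermediates of the cycle, 10 were lower and 8 higher, with 1 and 5 at an unadjusted p below 0.05, where 3.05% and 7.34% of all tested genes were. None was called by edgeR on summed counts. Slc25a1 and Slc25a10 were called by DESeq2 (FDR 0.0342 and 0.00707) and by edgeR on the depth-matched libraries (FDR 0.0148 and 0.0353), which called 601 of 17013 and 80 of 11248 genes in the whole table. By limma-voom none of the 18 was called. Slc25a1, the mitochondrial citrate carrier, was at 19.1, 15.0, 22.3 and 23.4 CPM in Control mice and at 75.7, 221 and 22.7 CPM in Notch3-/- mice, a log2 fold change of 2.42 (SE 0.59, FDR 0.170, edgeR). Pcx, which makes oxaloacetate from pyruvate, was at 105, 105, 120.2 and 111 CPM in Control mice and at 154, 498 and 132 CPM in Notch3-/- mice. Slc25a10 (1.38), Me1 (0.85) and Glud1 (0.55) were the other 3 higher genes at that threshold. Notch3-/- mouse 3 was within the Control range for all 3, and for Me1 Notch3-/- mouse 2 (524 CPM) stood alone above the other 6 mice (136 to 178 CPM). Pck2, the mitochondrial phosphoenolpyruvate carboxykinase, was the lower one, at 29.3, 36.5, 21.6 and 24.7 CPM in Control mice and 16.9, 17.0 and 15.5 CPM in Notch3-/- mice, with groups apart.

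**Figure D5:**
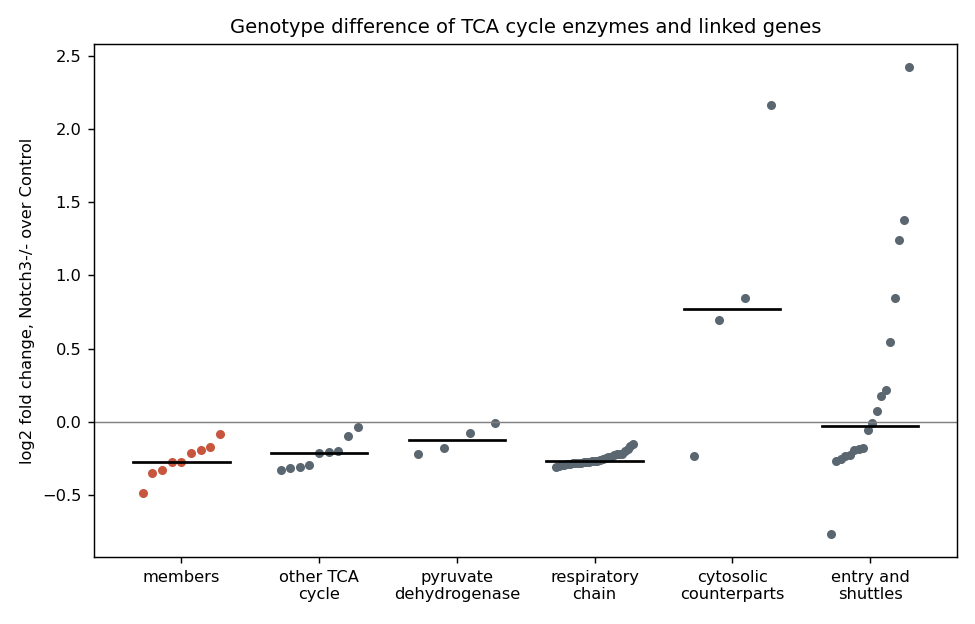
Each point is the log2 fold change of 1 gene in Notch3-/- over Control mice from edgeR on summed counts, and the bar is the median of the list. The mitochondrial lists lie between -0.48 and -0.0067, while 3 of 4 cytosolic counterparts and 8 of 18 entry and shuttle genes lie above 0.

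Hepatocyte transcripts were far above the Control range in Notch3-/- mice 1 and 2 and within it in mouse 3. The 15 hepatocyte markers summed to 51.4, 158, 12.5 and 26.7 CPM in Control mice 1 to 4 and to 5989, 10415 and 142 CPM in Notch3-/- mice 1 to 3, with 4, 0, 3 and 3 of the 15 at 0 counts in the Control mice and none at 0 in the Notch3-/- mice. Alb, the albumin gene and the most abundant of them, was at 22.4, 81.1, 2.35 and 10.7 CPM in Control mice and at 1705, 1875 and 66.9 CPM in Notch3-/- mice. Of the 15 markers 13 were tested in edgeR. All 13 were higher with an unadjusted p below 0.05, where 7.34% of all tested genes were, and none was called on summed counts. DESeq2 called 14 of 15 (601 of 17013 genes in the whole table), limma-voom 1 of 6 tested (65 of 11193) and edgeR on the depth-matched libraries 7 of 7 tested (80 of 11248). Which markers were tested depends on their counts in Notch3-/- mice 1 and 2, since they are low in the other mice. Acly, Idh1, Pcx, Slc25a1, Slc25a10, Me1 and Glud1 are also expressed in hepatocytes, and the part of hepatocyte RNA in their differences was not tested. For Aco1, likewise highest in Notch3-/- mouse 2, that part was not tested either. For the 9 TCA cycle genes the median log2 fold change was -0.26 with a hepatocyte score as a covariate. The SE of Idh2 was then 0.25 against 0.13 without the score. The median was -0.33 without Notch3-/- mice 1 and 2, an alternative chosen after seeing the data. There the lone Notch3-/- mouse is assumed to vary like the Control mice. That mouse was deep, at 5086740 counts. In its depth-matched library the mean log2 CPM of the 9 genes was 10.01, within the Control range of 9.99 to 10.09. Neither setting separates hepatocyte RNA from both genotype and depth.

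Other cell types were also followed. The 5 erythroid markers were lower in 5 of 5 (median -0.48, or -0.27 with the depth covariate), with Hbb-bs as the most abundant at 130.5 to 200.2 CPM in Control and 83.6 to 129 CPM in Notch3-/- mice. Summed, the 5 markers were at 351 to 536 CPM in Control mice. In Notch3-/- mice 1 to 3 they were at 303, 475 and 206 CPM, with mouse 2 within the Control range. Of 4 tested smooth muscle markers 3 were lower (median -0.58), and Smtn, the most abundant, was at 349 to 473 CPM in Control and 326 to 368 CPM in Notch3-/- mice. Of 5 fibroblast markers 4 were higher (median 0.41), though Dcn, the most abundant, was lower at -0.26 (SE 0.11). The medians were 0.080 for 5 endothelial markers (Kdr the most abundant, 0.43) and 0.23 for 5 macrophage markers (Csf1r the most abundant, 0.22). None of the 5 adipocyte markers passed the filter on low counts, and Cfd, the most abundant, had at most 9 counts in a mouse. None of these markers was called by edgeR on summed counts. DESeq2, limma-voom and edgeR on the depth-matched libraries each called the same smooth muscle marker as lower. In the whole table they called 27 of 17013, 10 of 11193 and 2 of 11248 genes as lower. DESeq2 called 2 and limma-voom 1 of the 5 fibroblast markers as higher, where they called 574 of 17013 and 55 of 11193 genes as higher. The part of these cell types in the difference of the TCA cycle genes was not tested.

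Ratios of 2 genes in the same mouse do not depend on the scaling of the library. An exact permutation test, two-sided and run on all 35 divisions of the 7 mice, was applied to 8 ratios, and none passed after Benjamini-Hochberg adjustment over the 8. With a smallest possible exact p of 0.0286, a ratio could not pass on its own, so this outcome says little about single ratios. The log2 ratio of Idh2 to Idh1 was 3.30 ± 0.33 (SD, n = 4) in Control and 2.09 ± 0.86 (SD, n = 3) in Notch3-/- mice. The difference of -1.21 had an exact p of 0.0286, the smallest that 35 divisions allow, and 0.114 after adjustment. Without Notch3-/- mouse 2 it was -0.72. Both genes enter this difference, with a log2 fold change of 0.85 (SE 0.30) for Idh1 and -0.48 (SE 0.13) for Idh2 in edgeR. Notch3-/- mouse 3, with hepatocyte markers within the Control range, was at 2.74, near the lowest Control mouse at 2.83. The part of hepatocyte RNA in this ratio was not tested. The log2 ratio of Mdh2 to Mdh1 was -0.10 ± 0.037 (SD, n = 4) in Control and -0.20 ± 0.042 (SD, n = 3) in Notch3-/- mice, a small difference of -0.093 with the same exact p of 0.0286 and the same adjusted value of 0.114. In the depth-matched libraries these 2 differences were -1.22 and -0.096.

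Within the enzyme complexes the differences were nearer to 0 than that of Idh2 to Idh1. Ogdh to Dlst was 1.44 to 1.56 in Control and 1.21 to 1.46 in Notch3-/- mice on the log2 scale, so that the groups overlapped slightly (difference -0.19, exact p 0.0571, 0.152 adjusted), and the difference was -0.11 in the depth-matched libraries. Idh3a to Idh3g, Idh3b to Idh3g and Idh3a to Idh3b differed by 0.16, 0.086 and 0.075, with exact p-values of 0.143, 0.286 and 0.457. These moved with the setting, to 0.049 for Idh3a to Idh3g and -0.015 for Idh3a to Idh3b in the depth-matched libraries, 0.023 for Idh3b to Idh3g without Notch3-/- mouse 2 and 0.013 for Idh3a to Idh3b without Notch3-/- mouse 3. The log2 ratio of Sucla2 to Suclg1, the subunits of the ATP-forming ligase, differed by -0.0031 (exact p 0.914), or -0.050 in the depth-matched libraries. That of Sucla2 to Suclg2 differed by -0.19 (exact p 0.257), or 0.0014 in the depth-matched libraries. With 1 mouse left out the difference of Sucla2 to Suclg2 ranged from -0.30 to -0.11.

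Among the 5067 genes outside the 9 with at least 50 CPM on average, the 5 whose log2 CPM followed the mean of the 9 most closely over the 7 mice were Ndufv1 (Pearson's r 0.995), Slc25a3 (0.992), Cops6 (0.989), Hadha (0.989) and Cyc1 (0.988). Ndufv1 and Cyc1 encode subunits of the respiratory chain, Slc25a3 the mitochondrial phosphate carrier, Hadha an enzyme of fatty acid oxidation and Cops6 a subunit of the COP9 signalosome. Of the 5067 genes 156 (3.08%) had an r of at least 0.9. The 7 points differ in depth as well as in genotype, so that these values are a description of likeness only.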

How the data were processed

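The table deposited by the authors holds integer read counts for each gene, without normalization. The submitters' notes name CASAVA and the build mm10, and the aligner and the counting program are not given in the sources used here. The 34 counts on 92 ERCC spike-in sequences were left out. GENCODE vM21 gave names to 46005 of 46517 genes.

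Counts of the 3 technical libraries were summed per mouse. Genotypes were compared in R 4.3.3 with edgeR 4.0.16 (filterByExpr, TMM, quasi-likelihood F-test, genotype as the only term), with FDR over all tested genes by Benjamini-Hochberg. Calls needed an FDR below 0.05 together with a 1.5-fold difference, which are the study's thresholds. Alternatives used DESeq2 1.42.0 and limma 3.58.1 (voom, mouse as a random effect). CPM were scaled by TMM, and log2 CPM had a prior count of 2. The correction for levelling off assumed a ceiling of 2 counts per exon base. Fits and slopes were tested on simulated data. The simulated counts rose in proportion to depth, so levelling off and added spread between technical libraries were not covered. Reads carry no molecular identifiers, so counts are not independent molecules.

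Named genes were the 9 enzymes, those of 3 linked lists, the highest and lowest log2 fold change of the pyruvate dehydrogenase and respiratory chain lists, Notch3, the most abundant gene of each marker list and the 5 genes of most similar pattern. Members and lists were chosen with earlier results of these data known, and the motifs and the promoters shown after seeing the data. Not every gene of the cycle is reported here.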

Additional observations from a re-analysis of the deposited data

Results flagged for a closer look

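No level of the 9 TCA cycle genes and none of their ratios had a Control mouse far from the other 3. Of 92 sets of 4 Control values, 2 had one, where chance alone gives about 1 in 20. The summed fibroblast markers were at 1289 CPM in Control mouse 1 against 1032, 1046 and 1059 CPM in the others (gap over range 0.895). The summed adipocyte markers were at 9.69 CPM in Control mouse 4 against 0.235, 0.659 and 1.48 CPM (gap over range 0.869). The limit was that of Dixon's test for 4 values, and groups of 3 mice were not tested.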

How the results depend on the processing

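Of 25 alternatives for the genotype fit, 21 were planned and 4 were chosen after seeing the data. The 9 genes were all lower in 23 of them, and 7 were lower in 2. The median of their log2 fold changes ranged from -0.39 to -0.079. It was -0.079 in limma-voom with log2 library total as a covariate and -0.088 in edgeR with log2 mouse total as a covariate (added), where Cs (0.00073 and 0.015) and Dlst (0.019 and 0.047) reversed. Leaving out 1 mouse gave -0.39 to -0.19. Correcting counts for levelling off left the median at -0.28 with all exon bases or the principal transcript (added). Slopes on depth were not computed on the corrected counts, so how far the correction removed the change with depth was not tested. No alternative called any of the 9, leave-one-out fits (0 to 0) included. An FDR threshold alone (added) gave 0 in edgeR on summed counts, while Idh2 had an FDR below 0.05 in 2 alternatives, DESeq2 (0.0208) and edgeR on every gene of at least 1 count (0.0457).

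The number of genes called over the whole table was 601 in DESeq2, 639 with every gene of at least 1 count, 0 in k-labelled mice only, 0 with the hepatocyte covariate, 65 in limma-voom on 21 libraries, 11 there with the depth covariate, 48, 39 and 77 in technical libraries 1, 2 and 3 alone, 80 in the depth-matched libraries and 1 to 936 with 1 mouse left out (936 without Notch3-/- mouse 3). The cause was not tested. With the technical number as a replicate block limma-voom called 62 genes and the median of the 9 was -0.28. Libraries of different mice with the same technical number did not deviate together (median r -0.015 over 63 pairs, 0.0035 over 126 other pairs), so no pairing by number was seen.

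The median slope on depth was -0.52 in Control libraries, -0.71 in Notch3-/- libraries, -0.73 without the shallowest library (added) and -0.39 on CPM without TMM factors (added). In the depth-matched libraries the ratios Idh3a to Idh3b (-0.015) and Sucla2 to Suclg2 (0.0014) reversed, and Sucla2 to Suclg1 was at -0.050. Sucla2 to Suclg1 ranged from -0.040 to 0.040 with 1 mouse left out. No ratio passed after adjustment in the depth-matched libraries, where a ratio could again not pass on its own (smallest possible exact p 0.0286). With 1 mouse left out (0 to 0) none could, since the smallest possible exact p was then 0.05 or 0.0667. Notch3-/- libraries were deeper on average, though 2 of the 3 libraries of Notch3-/- mouse 1 were below the Control median, and depth and genotype are only partly separable.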
